A study of Mus musculus with 10 samples.

Results

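Cholesterol and fatty acid synthesis genes were followed in cultured mouse trophoblast stem cells (TSCs), which grow out of the outer, placenta-forming layer of the blastocyst. The 32 members were chosen by symbol and fall into a sterol branch of 23 genes and a fatty acid branch of 9 genes. All 32 had a row in at least 1 of the single-cell tables, which list 25038 genes in all, and 31 had a row in the bulk table, which lists 17793 genes.

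RNA was counted by CEL-Seq2, which reads transcript ends and, in single cells, tags each molecule with an identifier (UMI). Single cells were sorted into 384-well plates in 4 libraries, 1 per group, all on a C57BL/6J background and all labelled as carrying a randomly integrated GFP cassette. The differentiated TSC library came from line F4 kept for 6 days without Fgf4, Tgfb and heparin. The blastoid pTSC library held line pTS1 recovered from blastoids, which are blastocyst-like structures built from cultured cells. The pTSC library held newly derived TSCs in LT21 medium, with no statement of whether they were pTS1, and the TSC library held line F4 in Tx medium. The 6 bulk libraries came from C57BL/6J TSCs with eGFP knocked in at the CDX2 coding sequence, 3 sorted as CDX2-high and 3 as CDX2-low. None of the labels say whether the 3 bulk libraries of a group came from separate cultures, so p-values measure only the spread between libraries, which may be technical.

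Cells build cholesterol from acetyl-CoA through the mevalonate arm, squalene and a series of ring-modifying steps, and build fatty acids from the same acetyl-CoA through malonyl-CoA. Both branches are controlled by SREBPs, transcription factors held in the endoplasmic reticulum by INSIG proteins when sterols are plentiful and carried by SCAP to the Golgi, where they are released by cleavage, when sterols are short. Many genes of both branches, Insig1 among them, are direct SREBP targets.

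Promoter sequence from RefSeq (build GRCm38.p6; 250 bases before to 50 bases after an annotated start) was at hand for 25 of the 32 members. The sterol regulatory element was searched as TCACNCCAC, the CCAAT box as CCAAT and the GC box as GGGCGG, each on both strands. Windows of 4 genes are shown because their genes were among those at least 3-fold lower in blastoid pTSCs. They lie at chr13:119690101-119690400 (plus strand, Hmgcs1), chr5:28071162-28071461 (plus strand, Insig1), chr8:64733529-64733828 (minus strand, Msmo1) and chrX:72918271-72918570 (plus strand, Nsdhl). Capitals mark matches to the sterol regulatory element and the CCAAT box (ATTGG where it lies on the other strand).
Hmgcs1: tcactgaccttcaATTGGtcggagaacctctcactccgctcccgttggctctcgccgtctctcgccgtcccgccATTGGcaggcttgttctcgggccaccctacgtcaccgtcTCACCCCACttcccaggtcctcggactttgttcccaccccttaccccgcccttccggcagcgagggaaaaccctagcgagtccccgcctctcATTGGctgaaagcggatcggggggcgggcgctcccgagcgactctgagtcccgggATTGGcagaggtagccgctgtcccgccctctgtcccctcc
Insig1: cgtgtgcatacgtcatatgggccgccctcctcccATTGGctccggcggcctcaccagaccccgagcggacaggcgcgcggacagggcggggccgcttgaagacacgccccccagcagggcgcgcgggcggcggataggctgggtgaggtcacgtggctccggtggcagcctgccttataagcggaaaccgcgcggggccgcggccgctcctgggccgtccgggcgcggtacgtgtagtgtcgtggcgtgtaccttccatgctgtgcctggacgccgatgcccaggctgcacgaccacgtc
Msmo1: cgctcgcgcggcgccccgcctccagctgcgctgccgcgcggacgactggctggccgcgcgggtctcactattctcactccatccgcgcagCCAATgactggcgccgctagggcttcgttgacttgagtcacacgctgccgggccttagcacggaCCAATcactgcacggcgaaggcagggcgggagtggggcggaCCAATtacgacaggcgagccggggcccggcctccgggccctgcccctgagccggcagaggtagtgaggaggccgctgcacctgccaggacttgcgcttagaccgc
Nsdhl: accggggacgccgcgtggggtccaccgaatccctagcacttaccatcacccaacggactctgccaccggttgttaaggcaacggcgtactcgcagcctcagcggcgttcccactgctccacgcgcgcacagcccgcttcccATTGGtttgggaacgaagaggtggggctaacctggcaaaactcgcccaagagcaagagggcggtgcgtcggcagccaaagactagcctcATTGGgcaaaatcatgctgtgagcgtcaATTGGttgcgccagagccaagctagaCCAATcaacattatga
The sterol regulatory element was matched once, in the Hmgcs1 window, beginning 137 bases before the start. That is 1 of 19 sterol branch genes with a window, against 1.44% of 27025 mouse genes with one. A CCAAT box, the site of NF-Y, a known partner of SREBPs, was found for 17 of the 19 sterol branch genes (89.5%), against 41.1% of all genes with a window. A GC box, the site of SP1, was found for 18 of the 19 (94.7%), against 38.2% of all genes. A gene was counted if any of its windows held the motif. By window, a CCAAT box was in 68.0% of 25 sterol branch windows, against 37.4% of all 32851. A GC box was in 84.0% of them, against 35.7% of all windows. Of the 6 fatty acid branch genes with a window, 3 held a CCAAT box, 3 held a GC box and 0 held the sterol regulatory element. No match to the sterol regulatory element overlapped another motif in these windows. A match describes letters only, and no match says only that these letters are not in this window.

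Wells kept at a minimum of 2000 non-mitochondrial UMIs numbered 318 in differentiated TSCs, 257 in blastoid pTSCs, 299 in pTSCs and 318 in TSCs, with 2315931 to 5388767 UMIs a library. Median depth was 8473, 8242, 6844 and 15091 UMIs a well in the same order. All 10 trophoblast stem cell markers examined had UMIs in every library. Y-linked genes (5 examined) summed to 226 UMIs in differentiated TSCs, 2 in blastoid pTSCs, 1 in pTSCs and 0 in TSCs. This is a mismatch between 2 libraries that share the label F4, and a comparison of differentiated TSCs with pTSCs carries the same mismatch. Bulk totals were 116659 to 272030 counts, and the Cdx2-eGFP transcript was at 825, 805 and 728 CPM (counts scaled to the library total) in CDX2-high libraries, against 42.9, 50.4 and 104 CPM in CDX2-low libraries.

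With 1 library a group, the single-cell comparisons carry no test. Levels are CPM of UMIs, and the 95% intervals cover counting error alone. A gene was measured with at least 10 UMIs over both libraries, and higher or lower means a difference of at least 2-fold, a rule of size. Levels were not compared between genes. Counted over the 4 libraries, 24 members had at least 100 UMIs. The other 8, Mvk, Pmvk, Idi1, Tm7sf2, Ebp, Dhcr7, Acly and Srebf1, had between 1 and 59 UMIs, with a median of 7 annotated transcripts against 4 for the 24. Fatty acid branch member Acly, the enzyme that makes cytosolic acetyl-CoA, is an example: it had 49 UMIs in single cells but 342 to 506 CPM in every bulk library. The reverse was also seen: Stard4 was at 71.7 to 217 CPM in the single-cell libraries but at 0 to 8.57 CPM in bulk. Y-linked genes summed to 197 to 326 CPM in the bulk libraries, unlike in TSCs, pTSCs and blastoid pTSCs. The cause of these contrasts was not tested.

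**Figure D1:**
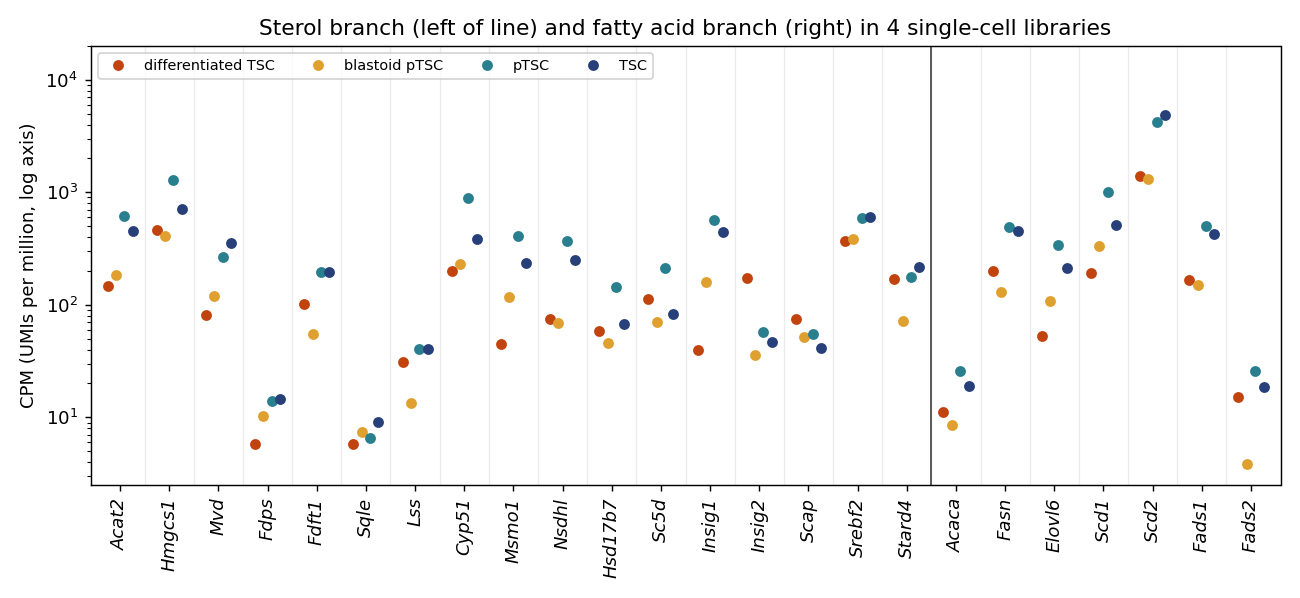
Level of the 24 members with at least 100 UMIs in the 4 single-cell libraries, in CPM on a log axis, 1 point per library, with the sterol branch left of the line and the fatty acid branch right of it. For most members the differentiated and blastoid points lie below the pTSC and TSC points. Insig2 is highest in the differentiated library, at 173 CPM.

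The comparison of differentiated TSCs with TSCs asks what changes once the growth factors are withdrawn. Genes of both branches were lower in the differentiated library, and the 2 INSIG genes went in opposite directions. In the sterol branch, 10 of 21 measured members were at least 2-fold lower, where 18.0% of all 12158 measured genes were, and 1 was at least 2-fold higher, against 17.5% of all genes. The 10 include Pmvk, Idi1, Tm7sf2 and Ebp, which rest on few UMIs, and the intervals of Tm7sf2 and Ebp include 1. The branch's median log2 ratio was -0.96 (medians of the members' interval bounds -1.49 and -0.59), beside 0.05 over all measured genes. In the fatty acid branch, 6 of 8 were lower and 0 higher, with a median log2 ratio of -1.39 (bounds -1.52 and -1.13).

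Mevalonate arm genes differed by unequal amounts. Mvd, which makes isopentenyl diphosphate, was at 80.8 CPM in differentiated TSCs against 355 CPM in TSCs, 4.39-fold lower (3.86 to 5.01). Acat2, the thiolase that feeds the arm, was at 148 CPM in differentiated TSCs against 451 CPM in TSCs, 3.04-fold lower (2.75 to 3.35). Hmgcs1, which makes HMG-CoA, was at 466 CPM in differentiated TSCs against 708 CPM in TSCs and stayed within 2-fold (1.52-fold lower, 1.43 to 1.61). The isomerase gene Idi1 had 0 UMIs in differentiated TSCs against 37 in TSCs, which is at least 7.45-fold lower with 3 counts over the library as the limit of a 0. The kinase gene Pmvk had 1 UMI in differentiated TSCs against 19 in TSCs, and Fdps, which makes farnesyl diphosphate, had 19 against 79. Together the 7 genes of this arm came to 702 CPM in differentiated TSCs and 1538 CPM in TSCs.

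Among well-counted genes of squalene and the sterol rings, Msmo1 and Nsdhl, which act at the C4 demethylation steps, differed most. Msmo1, the C4 methyl oxidase, was at 44.9 CPM in differentiated TSCs against 237 CPM in TSCs. Nsdhl, the dehydrogenase of the next step, was at 74.4 CPM in differentiated TSCs against 252 CPM in TSCs, 3.39-fold lower (2.96 to 3.90), and Hsd17b7, the reductase that completes the reaction, was at 58.4 CPM in differentiated TSCs against 67.0 CPM in TSCs. Nsdhl and Ebp are X-linked, and the part in these values of the mismatch in Y-linked UMIs was not tested. Fdft1, squalene synthase, was 1.94-fold lower (1.71 to 2.20), Cyp51, which removes the C14 methyl group, 1.90-fold (1.74 to 2.08), and Lss, lanosterol synthase, 1.30-fold (1.03 to 1.67). Sc5d, a desaturase of the sterol ring, was at 113 CPM in differentiated TSCs against 82.4 CPM in TSCs, but 1.87-fold below the 211 CPM of pTSCs, so its direction turns with the library it is set against. Sqle (19 UMIs in differentiated TSCs against 49 in TSCs), Tm7sf2 (4 against 14) and Ebp (2 against 12) had intervals that include 1, and Dhcr7 had 1 UMI in all 4 libraries together. In bulk Dhcr7 was at 14.4 to 69.8 CPM, on 2 to 13 counts a library.

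The sensing genes showed the widest spread of the branch. Insig1 was at 39.6 CPM in differentiated TSCs against 446 CPM in TSCs, the widest deficit of any member with at least 100 UMIs. Insig2, the homologue known in liver for transcription that does not need SREBPs, was at 173 CPM in differentiated TSCs against 46.4 CPM in TSCs, 3.74-fold higher (3.21 to 4.35). Insig1 and Insig2 thus had 129 and 564 UMIs in the differentiated library and 2404 and 250 in the TSC library. Scap, the SREBP escort, was 1.83-fold higher in differentiated TSCs (244 UMIs against 221 in the deeper TSC library, interval 1.52 to 2.20), and Srebf2, which encodes SREBP2, was 1.61-fold lower (373 CPM in differentiated TSCs against 601 CPM in TSCs, 1.51 to 1.72). Stard4, a carrier of cholesterol between membranes, was at 168 CPM in differentiated TSCs against 217 CPM in TSCs.

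In the fatty acid branch Scd1, Scd2 and Fads1 of the desaturases, the elongase gene Elovl6, Fasn and Acly were lower. Scd2, a delta-9 desaturase, was at 1397 CPM in differentiated TSCs against 4832 CPM in TSCs, 3.46-fold lower (3.35 to 3.57), and its neighbour in the family Scd1 was at 191 CPM in differentiated TSCs against 513 CPM in TSCs, 2.69-fold lower (2.47 to 2.94). Elovl6, which lengthens palmitate, was at 52.8 CPM in differentiated TSCs against 212 CPM in TSCs, 4.01-fold lower (3.41 to 4.73). Fads1, the delta-5 desaturase of polyunsaturated fatty acids, was 2.55-fold lower (167 CPM in differentiated TSCs against 427 CPM in TSCs), and Fasn, the fatty acid synthase, 2.25-fold lower (200 CPM in differentiated TSCs against 449 CPM in TSCs). Acaca, which makes malonyl-CoA, was at 11.1 CPM in differentiated TSCs against 19.1 CPM in TSCs and Fads2, the delta-6 desaturase, at 15.1 CPM in differentiated TSCs against 18.7 CPM in TSCs, both within 2-fold, and Acly had 2 UMIs against 27. Srebf1, the SREBP best known for fatty acid genes, had 1 UMI in all 4 libraries together. In bulk it was at 33.1 to 77.1 CPM, on 6 to 13 counts a library, so the single-cell count does not show that it is absent.

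The trophoblast stem cell and epiblast marker lists also differed between these libraries. The primitive endoderm and fibroblast lists had median log2 ratios near 0, at -0.01 and -0.09. Of the 10 trophoblast stem cell markers, 6 were at least 2-fold lower in differentiated TSCs (Cdx2, Eomes, Elf5, Esrrb, Sox2 and Tfap2c) and 1, the keratin gene Krt8, was higher, with a median log2 ratio of -1.25. Cdx2 was at 2.46 CPM in differentiated TSCs against 49.9 CPM in TSCs. The list summed to 5534 CPM in differentiated TSCs and 3466 CPM in TSCs, most of it from Krt8 and Krt18. Of 4 measured epiblast markers, Klf2 and Klf4 were higher and 0 lower (median 1.12), and the 8 listed summed to 430 CPM in differentiated TSCs and 174 CPM in TSCs, with Pou5f1, Nanog and Tdgf1 at 0 in differentiated TSCs and Nanog at 0 in TSCs. Primitive endoderm markers summed to 17.5 CPM in differentiated TSCs and 19.3 CPM in TSCs, with Gata4 at 0 in both, and fibroblast markers to 12.3 CPM in differentiated TSCs and 9.84 CPM in TSCs, with Dcn at 0 in both. The part of these differences in the members' values was not tested.

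Set against pTSCs, which like TSCs had almost no Y-linked UMIs, 12 of 20 sterol branch members were lower in differentiated TSCs, where 22.5% of all genes were, and 1 was higher, where 20.5% were. The medians were -1.39 for the sterol branch and -1.60 for the fatty acid branch, in which 7 of 8 were lower. Insig2 remained the member that was higher (interval 2.49- to 3.63-fold).

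**Figure D2:**
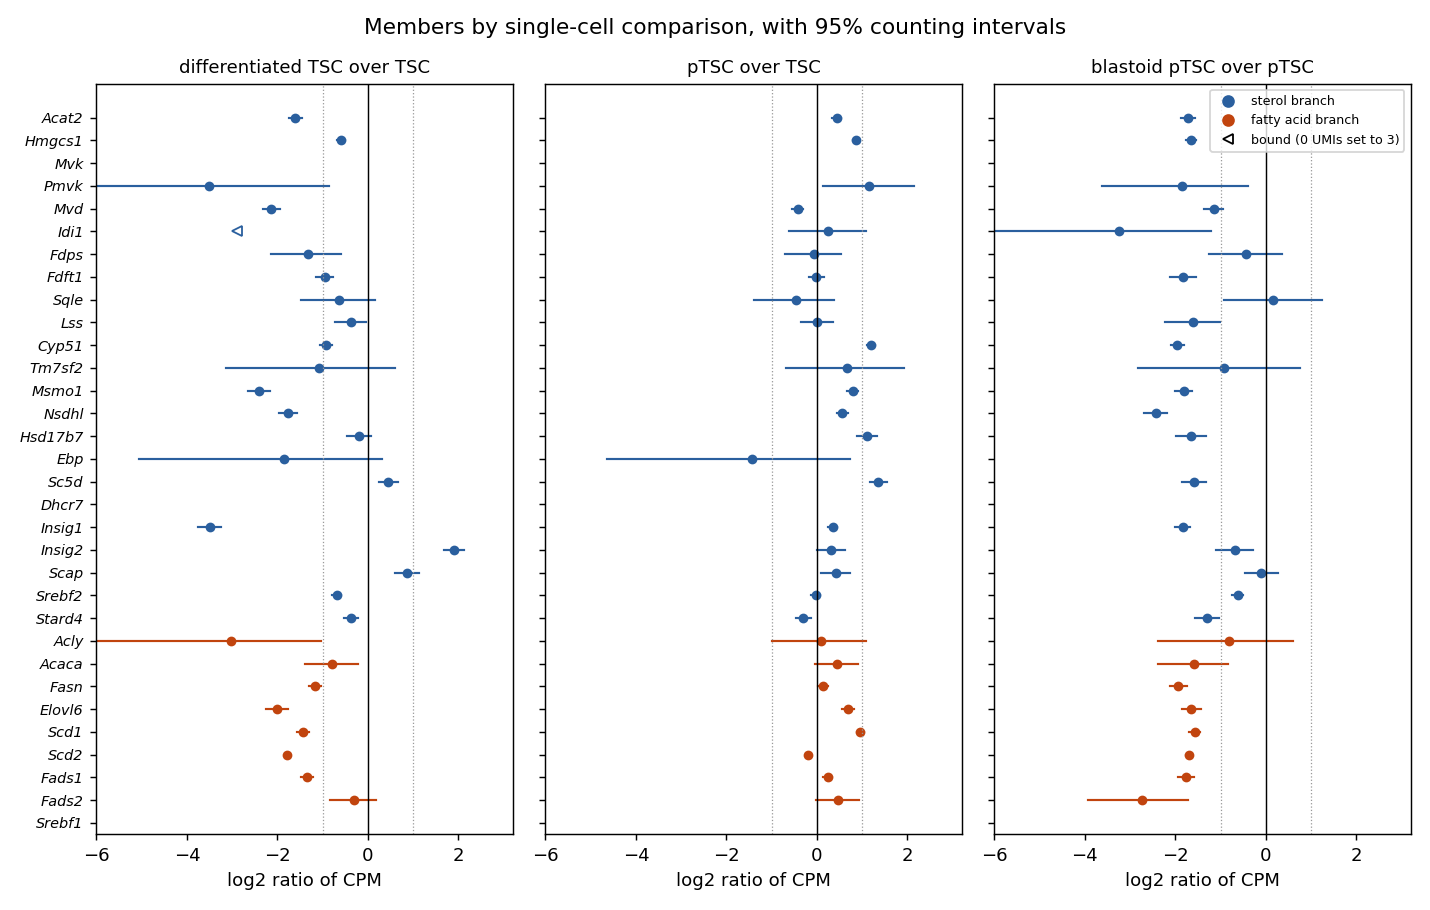
Log2 ratio of CPM for each measured member, with 95% counting intervals, in the comparisons of differentiated TSCs with TSCs, pTSCs with TSCs and blastoid pTSCs with pTSCs. Dotted lines stand at 2-fold, intervals that run past -6 are clipped, and the open triangle is a bound. Blastoid members lie mostly between -1 and -3, whereas in differentiated TSCs they run from -3.52 for Pmvk to 1.90 for Insig2.

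The comparison of blastoid pTSCs with pTSCs asks what differs in trophoblast cells after they have been part of a blastoid. Most enzymes of both branches were lower, and no measured member was at least 2-fold higher. In the sterol branch, 14 of 20 measured members were at least 2-fold lower, where 9.42% of all 11343 measured genes were, and 0 were higher, where 13.4% were. The median log2 ratio was -1.62 (bounds -1.93 and -1.12), beside 0.07 over all genes. In the fatty acid branch 7 of 8 were lower and 0 higher, with a median of -1.67 (bounds -2.03 and -1.52).

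In the mevalonate arm, Hmgcs1 was at 410 CPM in blastoid pTSCs against 1292 CPM in pTSCs, 3.15-fold lower (2.93 to 3.39). Acat2 was at 185 CPM in blastoid pTSCs against 610 CPM in pTSCs, 3.30-fold lower (2.96 to 3.69). Mvd was at 119 CPM in blastoid pTSCs against 264 CPM in pTSCs, 2.23-fold lower (1.93 to 2.57). Pmvk (5 UMIs in blastoid pTSCs against 19 in pTSCs) and Idi1 (2 against 20) lay on the same side, and Fdps (24 against 34) was within 2-fold. Mvk, the mevalonate kinase, had 4 UMIs in all 4 libraries and was not measured. The arm came to 727 CPM in blastoid pTSCs and 2197 CPM in pTSCs.

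Of the 9 measured genes of squalene and the rings, 7 were at least 2-fold lower. Nsdhl was at 69.1 CPM in blastoid pTSCs against 373 CPM in pTSCs, 5.40-fold lower (4.56 to 6.43). Cyp51 was at 229 CPM in blastoid pTSCs against 887 CPM in pTSCs (3.87-fold, 3.52 to 4.26), and Msmo1 at 117 CPM in blastoid pTSCs against 411 CPM in pTSCs (3.53-fold, 3.08 to 4.05). Fdft1 was 3.55-fold, Hsd17b7 3.13-fold and Lss 3.03-fold lower, and Sc5d was at 70.4 CPM in blastoid pTSCs against 211 CPM in pTSCs, so that the 11 genes of squalene and the rings came to 609 CPM in blastoid pTSCs and 2274 CPM in pTSCs. Sqle (17 UMIs in blastoid pTSCs against 16 in pTSCs) and Tm7sf2 (5 against 10) were within 2-fold, with intervals that include 1.

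Of the control genes, Insig1 was lower, and Insig2, Srebf2 and Scap were within 2-fold. Insig1 was at 159 CPM in blastoid pTSCs against 568 CPM in pTSCs, 3.56-fold lower (3.17 to 4.01). Insig2 was at 35.8 CPM in blastoid pTSCs against 57.8 CPM in pTSCs (1.61-fold lower, 1.22 to 2.14), Srebf2 at 384 CPM in blastoid pTSCs against 590 CPM in pTSCs (1.54-fold lower, 1.41 to 1.67) and Scap at 51.4 CPM in blastoid pTSCs against 55.0 CPM in pTSCs. Stard4 was 2.46-fold lower (71.7 CPM in blastoid pTSCs against 176 CPM in pTSCs, 2.05 to 2.96). The Insig2 value lay below pTSCs here and above TSCs in the differentiated library. With no replicate libraries, that contrast was not tested.

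In the fatty acid branch, Scd2 was at 1307 CPM in blastoid pTSCs against 4249 CPM in pTSCs, 3.25-fold lower (3.12 to 3.39), and Scd1 at 336 CPM in blastoid pTSCs against 998 CPM in pTSCs, 2.97-fold lower (2.74 to 3.22). Fasn was at 130 CPM in blastoid pTSCs against 494 CPM in pTSCs (3.81-fold, 3.36 to 4.34). Elovl6 (109 CPM in blastoid pTSCs against 340 CPM in pTSCs, 3.12-fold) and Fads1 (149 CPM in blastoid pTSCs against 504 CPM in pTSCs, 3.38-fold) were lower by like factors. Acaca (20 UMIs in blastoid pTSCs against 63 in pTSCs) and Fads2 (9 against 63) were lower on few counts, and Acly (7 against 13) was within 2-fold.

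Markers of other cell types were examined beside this result, since a blastoid holds more than trophoblast. The 8 epiblast markers summed to 294 CPM in blastoid pTSCs and 158 CPM in pTSCs, with Nanog at 0 in both and Tdgf1 at 0 in pTSCs. UMIs of Tdgf1, Fgf4 or Pou5f1 were found in 20 blastoid wells (114 UMIs) and 3 pTSC wells (3 UMIs). Without those wells, a comparison added after seeing the data, the medians were -1.60 and -1.72 and the counts of lower members were again 14 and 7. Klf4 (82.9 CPM in blastoid pTSCs against 16.8 CPM in pTSCs) and Dppa5a (26.8 against 2.05 CPM) were not used to pick wells. The part of other cell types in the members' values was not tested. Primitive endoderm markers summed to 61 UMIs in either library, with Gata4 at 0 in both, and fibroblast markers to 15.5 CPM in blastoid pTSCs against 40.2 CPM in pTSCs, with Dcn at 0 in both. Of the 10 trophoblast stem cell markers, 0 were higher and 1 lower in blastoid pTSCs (median log2 ratio -0.55).

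Against TSCs in place of pTSCs, 9 of 21 sterol branch members were lower in blastoid pTSCs, where 12.9% of all genes were, and 0 were higher, where 20.8% were. The median log2 ratios were -0.78 in the sterol branch and -1.33 in the fatty acid branch, of which 5 of 8 were lower.

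The members lower in differentiated TSCs against TSCs and in blastoid pTSCs against pTSCs can be set side by side, since these 2 comparisons share no library. Only genes measured in both comparisons are counted here. In the sterol branch 7 of 20 (35.0%) were lower in both: Acat2, Idi1, Insig1, Msmo1, Mvd, Nsdhl and Pmvk. That is 77.8% of the 9 lower in differentiated TSCs and 50% of the 14 lower in blastoid pTSCs. In the fatty acid branch 5 of 8 (62.5%) were lower in both, 83.3% of the 6 and 71.4% of the 7: Elovl6, Fads1, Fasn, Scd1 and Scd2. Of all 10555 genes measured in both comparisons, 270 (2.56%) were lower in both, which is 15.2% of those lower in differentiated TSCs and 28.7% of those lower in blastoid pTSCs. Hmgcs1, Cyp51 and Fdft1 were 3.15-, 3.87- and 3.55-fold lower in blastoid pTSCs than in pTSCs, and between 1.52- and 1.94-fold lower in differentiated TSCs than in TSCs.

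Between pTSCs and TSCs both the line and the medium differ (newly derived cells in LT21, F4 in Tx). Cyp51, Hsd17b7 and Sc5d, which act on the sterol ring, were higher in pTSCs, and the measured fatty acid branch members were within 2-fold. In the sterol branch 4 of 21 measured members were higher, where 17.6% of all 12070 measured genes were, and 1 was lower, where 13.9% were, with a median log2 ratio of 0.35 (bounds 0.01 and 0.69) beside -0.04 over all genes. The share of members past 2-fold was thus near that of all genes. In the fatty acid branch 0 of 8 were past 2-fold in either direction (median 0.34, bounds 0.01 and 0.86).

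Sc5d was at 211 CPM in pTSCs against 82.4 CPM in TSCs, 2.56-fold higher (2.25 to 2.92). Cyp51 was at 887 CPM in pTSCs against 385 CPM in TSCs, 2.31-fold higher (2.17 to 2.45), and Hsd17b7 at 145 CPM in pTSCs against 67.0 CPM in TSCs, 2.16-fold higher (1.86 to 2.51). Pmvk, with 19 UMIs in each library, was 2.21-fold higher in CPM (1.11 to 4.41), and Ebp, the member counted as lower, had 2 UMIs against 12 with an interval that includes 1. Hmgcs1 (1.83-fold), Msmo1 (1.73-fold) and Nsdhl (1.48-fold) were higher within 2-fold, while Fdft1 and Lss differed by less than their counting error and Mvd was 1.34-fold lower. Srebf2 was at 590 CPM in pTSCs against 601 CPM in TSCs. The desaturases of the fatty acid branch moved unequally, with Scd1 at 998 CPM in pTSCs against 513 CPM in TSCs (1.95-fold higher, 1.84 to 2.06) and Scd2 at 4249 CPM in pTSCs against 4832 CPM in TSCs (1.14-fold lower, 1.11 to 1.16).

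The lower levels were spread over the wells and did not rest on a few. Summed over the sterol branch, the median well held 1941 CPM in differentiated TSCs, 1699 CPM in blastoid pTSCs, 5830 CPM in pTSCs and 4024 CPM in TSCs. Summed over the fatty acid branch, it held 1757, 1715, 6280 and 6160 CPM in the same order. Scd2 alone was at 1397, 1307, 4249 and 4832 CPM in these libraries, so the fatty acid sums mostly follow that gene. Of 318 differentiated wells, 293 (92.1%) lay below the TSC median for the sterol branch and 316 (99.4%) for the fatty acid branch. Of 257 blastoid wells, 255 (99.2%) lay below the pTSC median for either branch. Of 299 pTSC wells, 246 (82.3%) lay above the TSC median for the sterol branch and 158 (52.8%) for the fatty acid branch. Wells of 1 plate share a library and are not replicates, so these shares describe the libraries.

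**Figure D3:**
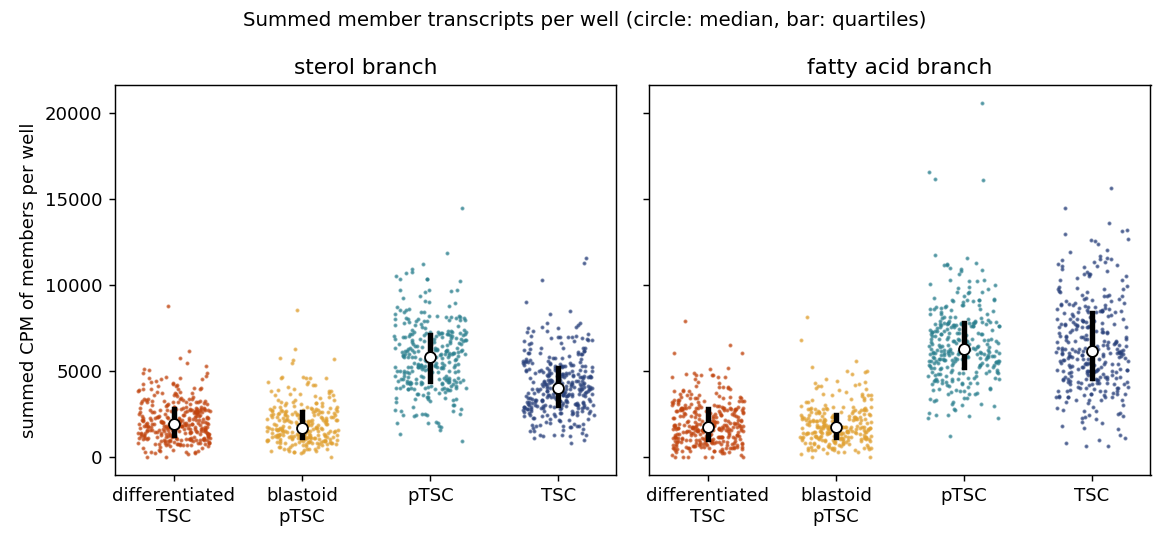
Summed CPM of the sterol branch (left) and the fatty acid branch (right) in each kept well of the 4 single-cell libraries, 1 point per well, with the median as a circle and the quartiles as a bar. The differentiated and blastoid medians lie between 1699 and 1941 CPM, and the pTSC and TSC medians at 4024 CPM or above. Most of the fatty acid sum is Scd2.

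Depth differed between the libraries, so each well was thinned to 2000 UMIs. The sterol branch then averaged 4.31 UMIs a well in differentiated TSCs, 4.26 in blastoid pTSCs, 11.7 in pTSCs and 8.43 in TSCs, and the fatty acid branch 3.95, 3.74, 13.2 and 13.0. After thinning, 87.1% of differentiated wells lay below the TSC median for the sterol branch and 97.2% for the fatty acid branch, and 96.1% and 98.1% of blastoid wells lay below the pTSC median. Among wells of 2000 to 5000 UMIs alone, the sterol branch was at 2128 CPM in differentiated TSCs, 1870 in blastoid pTSCs, 5511 in pTSCs and 4280 in TSCs. Among wells of 10000 to 20000 UMIs it was at 2384, 2053, 5981 and 4086 CPM, in the same order of libraries. Among wells of 5000 to 10000 UMIs it was at 2048, 2116, 6159 and 4242 CPM, with blastoid pTSCs above differentiated TSCs. The order of those libraries, and that of pTSCs and TSCs for the fatty acid branch, changed with depth. In every depth range both branches were lower in differentiated TSCs and blastoid pTSCs than in pTSCs and TSCs.

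The bulk comparison asks which members differ between cells sorted for high and low CDX2, a regulator of the trophoblast stem state. In sorted bulk RNA, fewer cells of a type and less RNA per cell cannot be told apart. By edgeR's quasi-likelihood test, 1 of 16 tested members passed at an adjusted p under 0.05, where 177 of 3006 tested genes (5.89%) passed. That member was Scd2, at 571, 576 and 647 CPM in CDX2-high libraries against 977, 806 and 1000 CPM in CDX2-low libraries. All 3 CDX2-high values lay below all 3 CDX2-low values, as the groups did without overlap in 22.7% of all tested genes, and Scd2 was the only tested member for which they did. Its mean was 598 ± 42.6 CPM in CDX2-high and 928 ± 106 CPM in CDX2-low libraries (SD, n = 3 each), a log2 fold change of -0.64 (SE 0.19, adjusted p = 0.0478 by edgeR). With DESeq2 it did not pass (adjusted p = 0.0732), and by edgeR it passed without CDX2-low library 41 (adjusted p = 0.0260) but not without any 1 of the other 5 libraries (adjusted p between 0.103 and 0.224).

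The other 5 tested fatty acid members had log2 fold changes between -0.19 for Acly and 0.34 for Fasn. Fasn was at 336, 447 and 342 CPM in CDX2-high libraries against 343, 281 and 267 CPM in CDX2-low libraries, with overlap (SE 0.23, adjusted p = 0.455 by edgeR). Scd1, which shares some end sequence with its family, was at 171, 253 and 232 CPM in CDX2-high libraries against 214, 187 and 244 CPM in CDX2-low libraries, with overlap. The log2 fold changes were 0.12 for Elovl6 and 0.08 for Fads1.

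No sterol branch member passed of 10 tested, 0 had an unadjusted p under 0.05 by edgeR, where 574 of 3006 tested genes (19.1%) did, and 0 passed by DESeq2. Their median log2 fold change was -0.14, beside -0.01 over all tested genes, and 0 had groups without overlap. Summed over all 22 sterol branch members with a row, the level was 2240, 2279 and 2312 CPM in CDX2-high libraries against 2366, 2425 and 2667 CPM in CDX2-low libraries. These sums did not overlap and are given with no test. For single genes, the groups did not overlap in 22.7% of all 3006 tested genes, so a lack of overlap is common here. The fatty acid branch summed to 1929, 2178 and 2055 CPM in CDX2-high libraries against 2469, 2123 and 2460 CPM in CDX2-low libraries, with overlap. Marker lists also stood apart between the groups: the 8 primitive endoderm markers summed to 23.3 to 33.1 CPM in CDX2-high libraries against 51.9 to 60.0 CPM in CDX2-low libraries, on 5 to 9 counts a library, and the 10 trophoblast stem cell markers to 2240 to 2371 CPM in CDX2-high libraries against 2417 to 2893 CPM in CDX2-low libraries. Epiblast and fibroblast sums overlapped. The part of these markers in the members' values was not tested. The lowest adjusted p was that of Fdps (0.411 by edgeR), at 209, 222 and 250 CPM in CDX2-high libraries against 223, 309 and 348 CPM in CDX2-low libraries. Hmgcs1 was at 343, 311 and 353 CPM in CDX2-high libraries against 480, 302 and 407 CPM in CDX2-low libraries with a difference of -0.25 on the log2 scale (SE 0.22). The other log2 fold changes were -0.40 for Sqle, -0.32 for Acat2, -0.21 for Mvd, -0.07 for Fdft1, -0.03 for Insig1, 0.00 for Pmvk, 0.19 for Cyp51 and 0.31 for Srebf2. Insig1 was at 76.1, 85.6 and 107 CPM in CDX2-high libraries against 60.0, 122 and 88.9 CPM in CDX2-low libraries. The Msmo1 row carries its older symbol, Sc4mol, and was read separately from the count of 16, with a log2 fold change of 0.07 (SE 0.27, adjusted p = 0.935 by edgeR). On simulated counts the test recovered 41 of 92 genes changed 2-fold and 86 of 87 changed 4-fold, so a 2-fold difference in a member can be missed at this depth. Members with a row that were too low to test had at most 18 counts in any library.

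**Figure D4:**
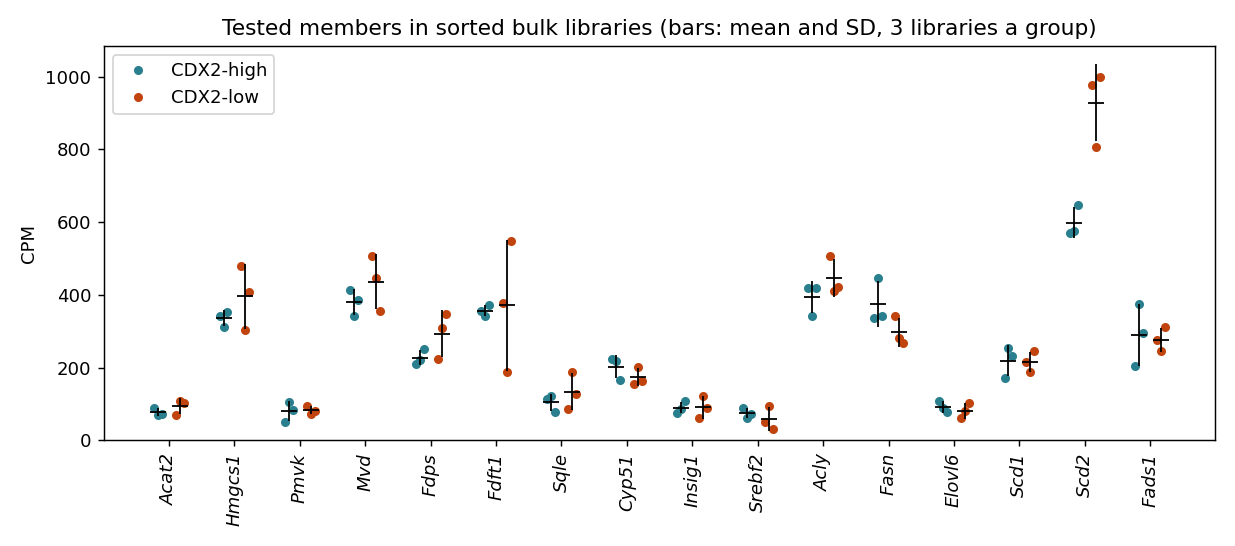
CPM of the 16 tested members in the 6 sorted bulk libraries, CDX2-high left of CDX2-low for each gene, 1 point per library, with the mean and SD. The groups overlap for every member except Scd2, whose CDX2-high points lie between 571 and 647 CPM and whose CDX2-low points lie between 806 and 1000 CPM.

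Genes next to these pathways were counted from lists of their own. In differentiated TSCs against TSCs, where 17.5% of all genes were higher and 18.0% lower, 0 of 13 measured sterol and isoprenoid neighbours were higher and 1 lower (median log2 ratio -0.02). Of 11 neighbours of fatty acid synthesis, 1 was higher and 1 lower (median 0.17), the higher one being the elongase gene Elovl7 (113 CPM in differentiated TSCs against 55.7 CPM in TSCs). In blastoid pTSCs against pTSCs, where 13.4% of all genes were higher and 9.42% lower, 3 of 13 sterol neighbours were higher and 1 lower (median 0.17), and of 11 fatty acid synthesis neighbours 0 were higher and 1 lower (median -0.70), Elovl5, which lengthens polyunsaturated fatty acids, at 247 CPM in blastoid pTSCs against 556 CPM in pTSCs. In pTSCs against TSCs, where 17.6% of all genes were higher and 13.9% lower, 0 of 13 sterol neighbours were past 2-fold (median -0.17). Of 12 fatty acid synthesis neighbours 4 were higher in pTSCs (median 0.47), led by the NADPH-making malic enzyme Me1 (84 UMIs in pTSCs against 40 in TSCs, 4.64-fold higher in CPM).

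Export and oxidation genes were higher in some cases and lower in others. Abca1, which exports cholesterol and is a target of the sterol receptor LXR, was at 194 CPM in differentiated TSCs against 43.1 CPM in TSCs (log2 ratio 2.17, 3.86- to 5.25-fold higher). Mylip, an LXR target that marks lipoprotein receptors for degradation, was at 37.5 CPM in differentiated TSCs against 84.4 CPM in TSCs (2.25-fold lower, 1.84 to 2.77). In blastoid pTSCs Abca1 was at 76.4 CPM against 13.5 CPM in pTSCs (5.65-fold higher, 3.88 to 8.45). Acaa2, a thiolase of mitochondrial fatty acid oxidation, was at 54.1 CPM in differentiated TSCs against 159 CPM in TSCs (2.93-fold lower, 2.49 to 3.47), and at 131 CPM in blastoid pTSCs against 85.7 CPM in pTSCs (1.53-fold higher, 1.28 to 1.83). Cpt1a, which admits long-chain fatty acids to mitochondria for oxidation, was at 183 CPM in differentiated TSCs against 82.4 CPM in TSCs (2.23-fold higher, 1.97 to 2.52), and at 96.7 CPM in blastoid pTSCs against 10.7 CPM in pTSCs (9.07-fold higher, 6.03 to 14.2). The pTSC library itself was low in both, at 13.5 CPM against 43.1 CPM in TSCs for Abca1 and 10.7 CPM against 82.4 CPM in TSCs for Cpt1a. As lists they were mixed, and with so few genes each the counts are given beside the shares of all genes above: of 9 measured oxidation genes 3 were higher and 1 lower in differentiated TSCs (median 0.27), and of 7 in blastoid pTSCs 2 were higher and 0 lower (median 0.78). Of 4 measured export and LXR genes 1 was higher and 1 lower in each of these comparisons. In pTSCs against TSCs, 1 of 4 export and LXR genes was higher and 2 lower, and 0 of 7 oxidation genes were higher and 3 lower. In bulk, 0 of 14 tested genes of these lists passed by edgeR, with 3 at an unadjusted p under 0.05, a share close to the 19.1% of all tested genes, and 0 by DESeq2.

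Some members share end sequence with other genes, and their counts are uncertain for that reason. In the last 300 bases of annotated transcripts, 63.3% of the 50-base words of Fdps, 47.7% of Idi1, 24.0% of Acaca, 22.6% of Fdft1, 20.9% of Acat2 (shared with Acat3) and 11.7% of Elovl6 were found in transcripts of other genes. For Scd1 it was 2.66%, and for Scd2, Hmgcs1, Mvd, Cyp51, Msmo1, Nsdhl, Insig2, Fasn and Fads1 it was 0%.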

How the data were processed

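RNA was measured by CEL-Seq2 in 4 single-cell plates and 6 bulk libraries. The submitters' processing notes name STAR 2.5.3a; the build, annotation and counting program are not stated in the labels. The deposited bulk table gives unscaled counts for each gene in each library. The deposited single-cell tables give transcripts per gene and well; no source says whether the authors corrected them for UMI collisions, so they were handled as estimated counts, and all values were whole (0 exceptions). Members and gene lists were chosen with earlier results of these data known.

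Bulk counts were fitted over all genes by the quasi-likelihood test of edgeR 4.0.16 (R 4.3.3; filterByExpr, TMM, glmQLFit, glmQLFTest, no covariates), adjusted by Benjamini-Hochberg over 3006 genes. The SE of a log2 fold change is its size over the root of the F statistic. DESeq2 1.42.0 was an alternative. Single-cell counts of wells reaching 2000 non-mitochondrial UMIs were summed per library and scaled to CPM. Each ratio has an exact conditional binomial interval (95%), and a 0 was replaced by 3 counts per library. A branch's median carries the medians of its members' lower and upper bounds. Doublets were not called, since wells were filled by sorting. Well positions recur between plates by design (148 kept in all 4), so barcodes show no shared cells. All members are named; genes outside the list are named as those with the largest absolute log2 ratio in their list among genes with at least 100 counts. Bulk fits were tested on simulated data (2828 genes tested, 5 of 132 calls false), as were the intervals (11856 genes, 96.1% held the true ratio). The interval simulation drew counts with counting error alone, which the intervals assume. It therefore checked their calculation and not how they hold for these cells. Transcript ends came from GENCODE and promoters from RefSeq. Python 3.11.15, numpy 2.4.6, pandas 2.3.3, scipy 1.17.1 and matplotlib 3.10.9 were used.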

Additional observations from a re-analysis of the deposited data

How the results depend on the processing

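The single bulk call, Scd2, was lost (0 members passed) with DESeq2, with no filter on low counts and after thinning to the smallest total, and the count ran between 0 and 1 when each library was left out in turn. The number of genes passing overall also changed, to 88 with DESeq2, 223 with no filter and 109 after thinning. Log2 fold changes near 0 changed sign in settings where none of these members passed. Pmvk was at -0.0266 with DESeq2, -0.00248 with RLE scaling, -0.00211 by library size alone and -0.0654 after thinning, and with no filter Fdft1 was at 0.0284 and Insig1 at 0.0729. With each library left out in turn, values ran from -0.20 to 0.22 for Pmvk, -0.39 to 0.37 for Fdft1, -0.23 to 0.26 for Insig1, -0.00717 to 0.86 for Srebf2, -0.0552 to 0.18 for Scd1, -0.0354 to 0.35 for Elovl6 and -0.11 to 0.28 for Fads1. The cause was not tested. No paired analysis was possible because the bulk replicate numbers run on from one group to the other and the single-cell groups have 1 library each.

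In single cells the 6 branch medians kept their sign under each alternative run. With TSC in place of pTSC the blastoid medians were -0.78 (sterol) and -1.33 (fatty acid), with 9 sterol members lower, and with pTSC in place of TSC the differentiated fatty acid median was -1.60 and Sc5d was at -0.91. With a gene minimum of 1 count, 2 sterol members were higher in differentiated TSCs. In blastoid pTSCs 2 were counted as higher, Mvk and Dhcr7, but only through the value that replaces a 0. Both had 0 UMIs in blastoid pTSCs against 1 UMI in pTSCs. The replacement stood at 1.30 CPM in blastoid pTSCs, above the 0.41 CPM of these genes in pTSCs. That count therefore shows no member higher in blastoid pTSCs. With a minimum of 50 counts, 6 sterol members were lower in differentiated TSCs and 0 in pTSCs, since the sparse members were no longer counted. Other minimums of UMIs per well, dropping the deepest 5% of wells, scaling to the median ratio and averaging wells moved no branch median beyond its counting bounds and no count by over 1.5 times. With 1 library a group, differences between cultures, lines, media and plates cannot be told apart.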
